A study of Mus musculus with 18 samples.

Results

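In wildtype mice, gene expression of spinal motor neurons was compared with that of facial motor neurons, which lie in the brainstem and send their axons to the muscles of the face. The arrays were chosen by their labels alone: 3 arrays of wildtype spinal motor neurons and 3 of wildtype facial motor neurons, 6 of the 18 arrays of the series. The other 12 arrays hold the same kinds of motor neuron from SOD1 mutant mice (3 spinal and 3 facial) and ventral spinal cord tissue from wildtype (3) and SOD1 mutant mice (3). SOD1 encodes a superoxide dismutase of the cytosol, and people with mutations in it can develop the motor neuron disease amyotrophic lateral sclerosis. Each array was hybridised with total RNA that had been copied by a T7 polymerase in a linear amplification, cord tissue included. How the motor neurons were picked, the strain, the SOD1 allele, and the sex and age of the mice are not given in the sources used here, nor is the meaning of D60, which all titles carry. The labels do not tie arrays to animals, so the p-values measure only how far these samples spread, and that spread may be technical. In samples measured in bulk, fewer cells of a type and less RNA per cell cannot be told apart.

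As background, the position of a motor neuron along the body axis is written in part by the Hox genes. These homeobox transcription factors lie in 4 clusters, and genes further along a cluster, with higher paralog numbers, are switched on at more posterior levels. The facial nucleus arises in the hindbrain, where mainly genes of the first paralog groups are used, while motor neurons that supply limbs and trunk arise at cervical to sacral levels. Spinal somatic motor neurons are further known for the homeobox factors Mnx1, Isl1 and Isl2, and facial motor neurons, which are branchial motor neurons, for T-box factors such as Tbx20 and for Phox2 genes.

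Both kinds of sample carried genes known from motor neurons, though some of them were dim. All levels below are log2(intensity + 16) after quantile normalization, and every mean is over n = 3 arrays with its SD. The vesicular acetylcholine transporter Slc18a3 was at 11.72, 13.31 and 12.04 in spinal and at 12.20, 12.22 and 12.26 in facial motor neurons. Peripherin (Prph), an intermediate filament of neurons with peripheral axons, had means of 15.64 ± 0.24 and 15.83 ± 0.16, against 12.09 in cord tissue. The peptide gene Calcb was at 16.27 ± 0.28 and 16.28 ± 0.10, with 12.29 in tissue. Choline acetyltransferase (Chat), which makes acetylcholine, was at 9.43 ± 0.81 and 9.01 ± 1.08, above its tissue level of 7.56. These means are near 8.79, the background level defined below. Acetylcholinesterase (Ache) was at 14.24 ± 0.55 and 14.41 ± 0.07, and the choline transporter Slc5a7 at 9.67 ± 1.17 and 9.85 ± 0.22. The 2 groups overlapped in all 6 of these genes, and none passed the test between sites (limma, Benjamini-Hochberg adjusted p between 0.48 and 0.966). They are examples from a list of genes shared by motor neurons. Of its 16 tested members 3 passed (18.8%, against 3.96% of all genes tested), Mmp9 and Chodl higher in spinal and Isl1 higher in facial motor neurons. The arrays of the sites did not overlap in 9 of the 16, and 9 had an unadjusted p under 0.05.

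Across the 10916 genes tested, 432 differed between the sites at an adjusted p under 0.05, which is 3.96% of the genes. Of these, 233 were higher in spinal (2.13% of the genes tested) and 199 higher in facial motor neurons (1.82%). The differences were mostly moderate, with a median size of 1.18 on the log2 scale, and 291 of the 432 exceeded 1. Differences over 2 were found for 49 genes on the spinal and 22 on the facial side. In a minority of them the level at one site was below background: 35 of the 233 spinal genes had a facial mean under 8.79 (the 40th percentile over genes, here taken as the background level), and 9 of the 199 facial genes had a spinal mean under it. Where a group lies under that level only the log2 difference is given, and folds elsewhere are on the log2(value + 16) scale. In all 432 genes the 3 arrays of one site lay above the 3 of the other, as they did in 28.5% of all genes tested. At an unadjusted p under 0.05 there were 2348 genes.

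**Figure D1:**
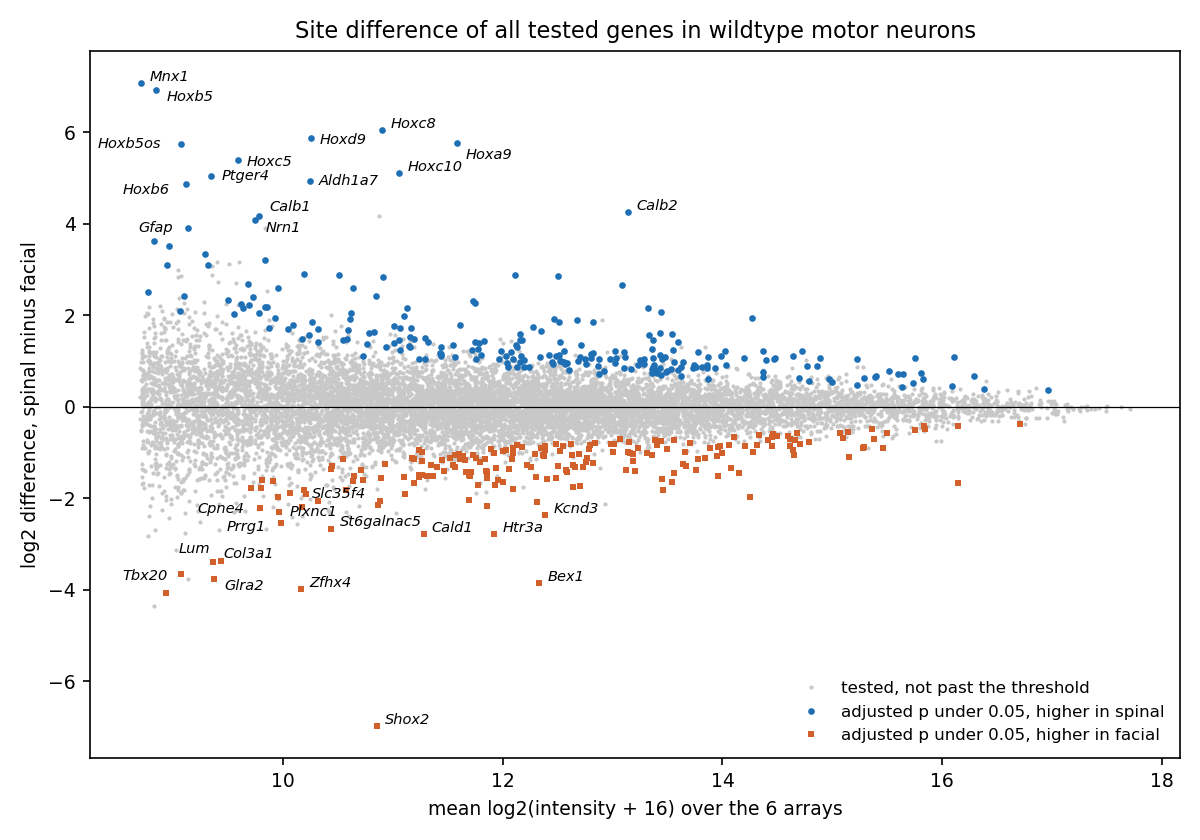
Log2 difference between wildtype spinal and facial motor neurons (vertical axis) against the mean log2(intensity + 16) over the 6 arrays (horizontal axis), 1 point for each of the 10916 genes tested. Blue circles are the 233 genes higher in spinal and orange squares the 199 genes higher in facial motor neurons; Mnx1 (7.08) and Shox2 (-6.97) lie at the 2 ends.

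The number of calls changed when single arrays were left out and when a measure of RNA quality was added as a covariate. It was 382, 687 and 74 without spinal replicates 1, 2 and 3, and 209, 107 and 59 without facial replicates 1, 2 and 3. The actin control, read as the signal of its 3' probe set over that of its 5' probe set, which rises as copies of the 5' end are lost, was 56.9, 40.9 and 41.5 on the spinal arrays and 74.4, 68.8 and 59.7 on the facial ones, so it did not overlap between the sites. With this actin ratio as a covariate 4 genes passed, Hoxc8, Hoxc10 and Shox2 among them, and 1485 had an unadjusted p under 0.05. The same ratio taken from the Gapdh control overlapped (32.4 ± 15.7 and 23.6 ± 3.52), and with it 787 genes passed. On the wildtype cord tissue arrays the actin ratio was 1.63 ± 0.0577 and the Gapdh ratio 0.867 ± 0.0406, far below both kinds of motor neuron sample. Levels of motor neurons and tissue are set side by side in this report across that difference, and its part in them was not tested.

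The clearest difference was the Hox code. The 4 mouse clusters were represented on the array by 33 Hox genes. Spinal motor neurons had 18 of them above the background level, as far as paralog group 10, and facial motor neurons had 1, Hoxb3. Because a Hox gene that is low at one site passes the brightness filter only through the other, all 33 were tested in a fit without a filter: 16 were higher in spinal and 0 in facial motor neurons, where 2.19% of all 18193 genes were called and 1.2% were higher in spinal. No Hox gene was higher in facial motor neurons at an unadjusted p under 0.05 either, with Hoxc13 nearest at 0.052. In 17 Hox genes all spinal arrays lay above all facial ones (12.4% of all genes, and 23.2% were separated in either direction), and in 1, Hoxc13, the reverse held with both sites below the background level.

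**Figure D2:**
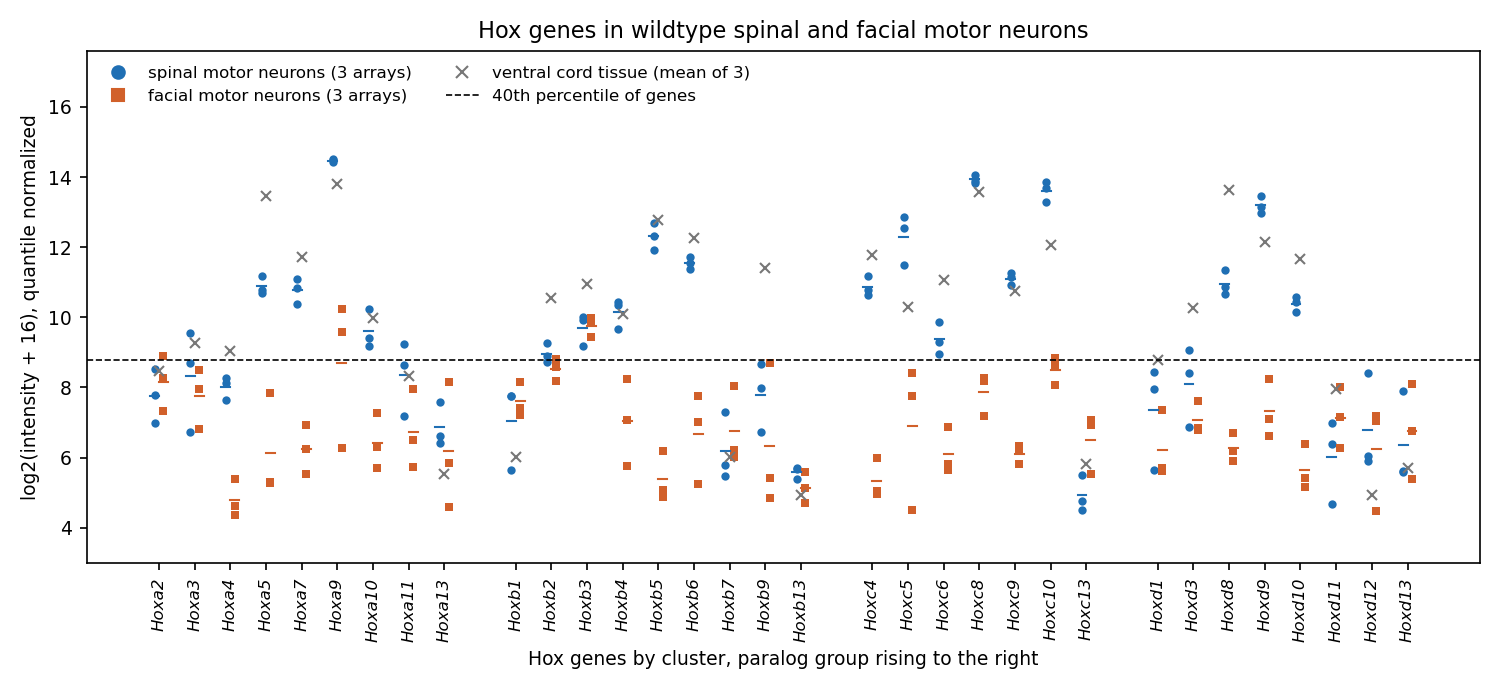
Log2(intensity + 16) of the 33 Hox genes on each wildtype motor neuron array, ordered by cluster and then by paralog number; short lines are the means of 3 arrays, crosses the mean of 3 wildtype cord tissue arrays, and the dashed line the background level of 8.79. Spinal means are above the line for 18 genes and facial means for 1, Hoxb3.

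Hoxc8 and Hoxc10, taken as markers of spinal level, were each separated by a wide gap. Hoxc8, a gene of brachial and thoracic levels, was at 13.90, 14.07 and 13.82 in spinal motor neurons and at 8.28, 7.19 and 8.18 in facial ones. The spinal arrays lay close together, near the cord tissue level of 13.56, and the facial arrays were all below background. The difference was 6.05 (SE 0.33, adjusted p = 5.9e-05). Hoxc10, a lumbar gene that specifies limb-innervating motor neurons, was at 13.68, 13.87 and 13.29 against 8.64, 8.06 and 8.83, again with no overlap. Its difference was 5.10 (SE 0.29, adjusted p = 6.33e-05), and its spinal mean of 13.61 was above the tissue mean of 12.07. The group 9 gene Hoxa9 was at 14.49, 14.42 and 14.51 in spinal motor neurons. On the facial arrays Hoxa9 was at 10.25, 6.27 and 9.58, so that 2 of the 3 were above background and their spread was wide (difference 5.77, SE 0.83, adjusted p = 0.00814). A second probe set of Hoxa9 gave 10.04 and 8.80, a difference of 1.25.

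Ordered along the clusters, and by 1 probe set per gene, the difference began at group 4 and was not called beyond group 10. None of the 7 genes of groups 1 to 3 was called or separated. Another bright probe set of Hoxa3 had means of 9.30 in spinal and 7.85 in facial motor neurons, a difference of 1.45 that was not tested. Dimmer ones differed by 0.80 and -0.11. Hoxb3 was at 10.01, 9.91 and 9.19 in spinal and at 9.88, 9.97 and 9.44 in facial motor neurons, and the arrays of the 2 sites were intermingled (-0.06, SE 0.39, adjusted p = 0.942). Hoxb2, which is known from the developing hindbrain, had means of 8.96 ± 0.29 and 8.52 ± 0.31 (0.44, adjusted p = 0.658). In groups 4 to 7, 8 of 10 genes were called without the filter, with a median difference of 4.64 over all 10. Hoxb5 was at 12.70, 12.32 and 11.91 against 5.07, 4.87 and 6.20, the widest gap of the family (6.92, SE 0.56, adjusted p = 0.000735). The exceptions were Hoxb4, which missed the threshold (3.12, adjusted p = 0.0525 without the filter) though its arrays did not overlap, and Hoxb7, which was below background at both sites and in tissue. In groups 8 and 9, 5 of 6 genes were called (median 5.38). Hoxb9 was not: its means were 7.79 ± 0.98 and 6.32 ± 2.07, and its tissue mean was 11.40. In groups 10 to 13, Hoxa10 (3.18), Hoxc10 and Hoxd10 (4.73) were called, and the other 7 genes, all of groups 11 to 13, were below background at both sites.

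Several Hox genes were lower in the spinal motor neuron samples than in cord tissue, among them Hoxa5 (10.89 ± 0.27 against 13.46 ± 0.10), Hoxd8 (10.96 ± 0.36 against 13.63 ± 0.28) and Hoxb9. Hoxc5 went the other way, at 12.30 ± 0.71 in spinal motor neurons and 10.30 ± 0.22 in tissue. These 4 were picked after their values were seen, and motor neurons and tissue were not tested against each other here. The actin ratio of motor neuron and tissue samples differed widely, as given above. Without the filter, leaving out spinal replicate 1, 2 or 3 left 13, 13 and 9 Hox genes called, and leaving out facial replicate 1, 2 or 3 left 14, 13 and 12. In each case all were higher in spinal motor neurons. Hoxc8, Hoxc10, Hoxd9 and Hoxb5 passed with each array left out, while Hoxa9, Hoxc5, Hoxb6 and the antisense transcript Hoxb5os lost the call without spinal replicate 3 (adjusted p = 0.0667, 0.0928, 0.0528 and 0.0521). Hoxb5os, which lies in the Hoxb cluster, differed by 5.74 (SE 0.69, adjusted p = 0.00471).

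Some of the factors that define motor neuron classes differed between the sites, in both directions. Of a list of spinal motor neuron factors 4 of 14 tested passed, 2 on each side, and of a list of cranial ones 3 of 9, 1 higher in spinal and 2 in facial, where 3.96% of all genes tested passed. The other 10 and 6 tested members did not. Mnx1, Shox2 and Tbx20 passed the brightness filter through the site where they are high, and dim members of the lists (23 and 21 matched on the array) were left out. These shares are therefore a description, as are those of later lists with called genes below background at one site. Without the filter Mnx1, Shox2 and Tbx20 passed too (limma, adjusted p = 0.000386, 1.96e-05 and 0.00848). Phox2a was too dim to be tested, at 8.49, 8.94 and 8.95 in spinal and at 8.40, 8.82 and 8.11 in facial motor neurons, near the background level and with overlap. Mnx1, a homeobox repressor that keeps spinal motor neurons from taking interneuron fates, was at 11.88, 12.86 and 12.01 in spinal motor neurons and at 5.79, 4.35 and 5.37 in facial ones. It was the largest difference of all genes tested at 7.08 (SE 0.60, adjusted p = 0.000809), with facial arrays far below background and cord tissue at 7.82. Shox2, a short stature homeobox factor that also marks a class of rhythm-generating spinal interneurons, showed the opposite pattern. Its levels were 7.12, 8.10 and 6.88 in spinal and 14.56, 14.06 and 14.40 in facial motor neurons, a difference of -6.97 (SE 0.35, adjusted p = 5.9e-05). The spinal arrays were below background and below cord tissue (9.33). Another bright probe set of Shox2 gave 7.55 and 10.53. Mnx1 and Shox2 passed with each array left out, with differences from 6.67 to 7.39 and from -7.34 to -6.73.

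Tbx20, a T-box factor required for migration of facial motor neurons, was at 11.27, 10.45 and 10.96 in facial and at 7.37, 6.67 and 7.69 in spinal motor neurons. All spinal arrays were below background, and the difference was -3.65 (SE 0.50, adjusted p = 0.00691). The related Tbx3 was at 8.17, 7.88 and 7.96 in spinal and at 10.08, 9.50 and 9.63 in facial motor neurons, with no overlap, and missed the threshold (-1.74, adjusted p = 0.0789). The LIM homeobox pair Isl1 and Isl2, which act in all and in somatic motor neurons respectively, differed in opposite directions. Isl1 was above the background level on all 6 arrays and lower in spinal (13.80, 12.31 and 13.71) than in facial motor neurons (15.13, 15.39 and 15.20), a 3.91-fold difference (-1.97, SE 0.34, adjusted p = 0.0186). Spinal replicate 2 was the lowest. Isl2 was 3.60-fold higher in spinal motor neurons, at 10.96, 11.52 and 11.11 against 9.13, 9.34 and 9.58 (1.85, SE 0.31, adjusted p = 0.0164). Irx3, an Iroquois factor that patterns the ventral neural tube, was 2.68-fold higher in spinal motor neurons (14.31 ± 0.09 against 12.89 ± 0.56, adjusted p = 0.0216).

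Zfhx4, a large zinc finger and homeobox factor, was at 11.50, 12.56 and 12.42 in facial and at 9.54, 6.15 and 8.82 in spinal motor neurons (-3.99, SE 0.76, adjusted p = 0.0259). Meis2, a partner of Hox proteins on DNA, was 2.92-fold higher in facial motor neurons (13.26 ± 0.19 against 11.72 ± 0.19, adjusted p = 0.00618). Its other bright probe sets differed by -2.98, -1.78 and -0.40. The other 7 tested Hox partners of the Meis, Pbx and related families did not pass. The nuclear receptor Nr2f1 was 1.95-fold higher in facial motor neurons (-0.96, SE 0.19, adjusted p = 0.0305). Among these regulators the calls of Isl1, Isl2 and Irx3 were lost without spinal replicate 3, facial replicate 2 or facial replicate 3 (adjusted p up to 0.066, 0.0765 and 0.0969), and that of Zfhx4 without the same arrays (up to 0.1). The calls of Tbx20 and Meis2 were lost without facial replicate 3 (0.079 and 0.0529). Nr2f1 lost its call without spinal replicate 3 or any one facial array (up to 0.211).

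The start regions of 6 of these regulators, 3 from each direction, are printed to show the sequence from which genes with opposed site patterns are transcribed. They are the 250 bases before a transcript start listed for each gene in RefSeq (GRCm38.p6), which need not be the outermost start. They are read 5′ to 3′ on the gene's strand. Capitals mark the GC box (GGGCGG or its complement CCGCCC) and the CCAAT box (CCAAT or its complement ATTGG), core elements that many promoters share. Higher in spinal motor neurons were Mnx1 (chr5:29478471-29478720, minus strand), Hoxa9 (chr6:52227371-52227620, minus strand) and Isl2 (chr9:55540899-55541148, plus strand). Higher in facial motor neurons were Shox2 (chr3:66981772-66982021, minus strand), Tbx20 (chr9:24774304-24774553, minus strand) and Isl1 (chr13:116309689-116309938, minus strand).
Mnx1: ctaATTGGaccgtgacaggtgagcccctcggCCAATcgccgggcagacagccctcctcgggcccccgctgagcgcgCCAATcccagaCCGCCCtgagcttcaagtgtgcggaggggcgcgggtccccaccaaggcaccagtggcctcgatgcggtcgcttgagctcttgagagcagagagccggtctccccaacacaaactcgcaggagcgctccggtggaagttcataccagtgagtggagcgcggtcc
Hoxa9: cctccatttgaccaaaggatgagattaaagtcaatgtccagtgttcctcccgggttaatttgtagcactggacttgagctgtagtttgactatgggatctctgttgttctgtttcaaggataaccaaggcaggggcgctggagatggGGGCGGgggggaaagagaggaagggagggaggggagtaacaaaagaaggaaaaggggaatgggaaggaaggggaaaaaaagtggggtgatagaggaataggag
Isl2: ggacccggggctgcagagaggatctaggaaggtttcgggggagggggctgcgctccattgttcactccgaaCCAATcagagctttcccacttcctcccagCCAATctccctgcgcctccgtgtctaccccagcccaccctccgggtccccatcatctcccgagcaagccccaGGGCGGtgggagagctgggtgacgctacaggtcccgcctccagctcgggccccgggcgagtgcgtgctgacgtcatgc
Shox2: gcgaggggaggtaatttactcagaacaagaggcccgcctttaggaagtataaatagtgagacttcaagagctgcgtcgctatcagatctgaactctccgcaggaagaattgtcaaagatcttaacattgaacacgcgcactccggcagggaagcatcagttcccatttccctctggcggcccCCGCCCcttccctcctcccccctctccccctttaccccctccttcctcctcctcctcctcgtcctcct
Tbx20: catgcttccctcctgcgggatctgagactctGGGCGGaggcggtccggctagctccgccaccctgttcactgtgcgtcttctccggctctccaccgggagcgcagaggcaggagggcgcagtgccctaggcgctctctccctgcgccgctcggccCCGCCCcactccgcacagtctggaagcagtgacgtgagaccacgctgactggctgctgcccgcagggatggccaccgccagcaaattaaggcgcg
Isl1: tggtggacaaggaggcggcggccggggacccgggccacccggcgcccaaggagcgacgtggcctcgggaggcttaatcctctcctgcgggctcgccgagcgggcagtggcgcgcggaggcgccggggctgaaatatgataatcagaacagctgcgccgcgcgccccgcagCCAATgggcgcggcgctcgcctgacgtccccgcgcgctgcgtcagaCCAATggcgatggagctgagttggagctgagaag
Among all 32851 windows of this length in the table, 32.7% held a GC box and 33.8% a CCAAT box. Both directions held both kinds of match. The window of Mnx1 had 1 GC box and 3 CCAAT boxes, that of Isl2 had 1 and 2, and that of Hoxa9 had 1 GC box. The windows of Shox2 and Tbx20 had 1 and 2 GC boxes and no CCAAT box in these letters, and that of Isl1 had 2 CCAAT boxes and no GC box in these letters. No matches of the 2 motifs overlapped. CpG pairs numbered 21, 3 and 16 in Mnx1, Hoxa9 and Isl2 and 11, 22 and 33 in Shox2, Tbx20 and Isl1, where the median window has 6 and the upper quartile is 16. Of the 33 Hox genes, 19 matched an entry of the table.

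**Figure D3:**
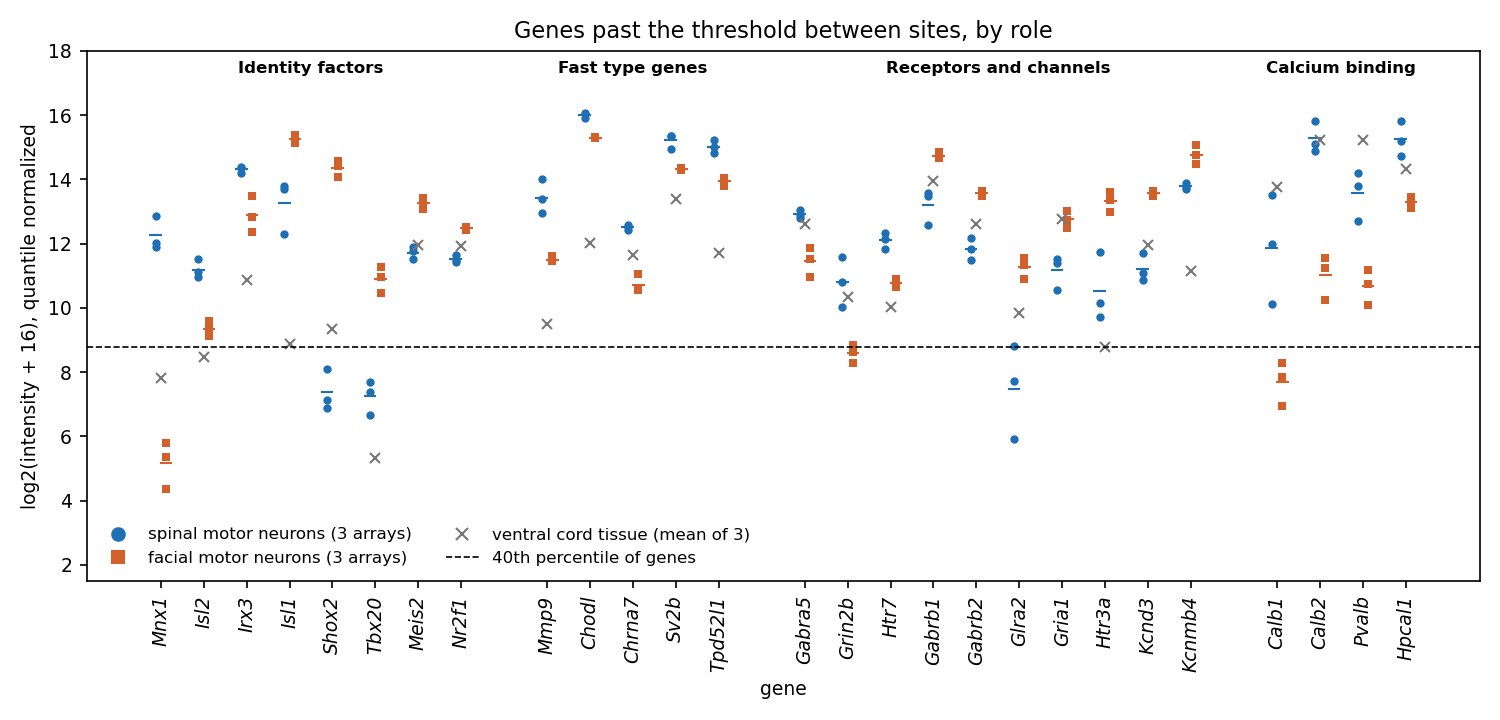
Log2(intensity + 16) of genes past the threshold on each wildtype motor neuron array, by role; short lines are means of 3 arrays, crosses the mean of 3 wildtype cord tissue arrays, and the dashed line the background level of 8.79. In each gene the 3 arrays of one site lie above the 3 of the other.

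Mmp9 and Chodl, known from fast motor neurons, were higher in the spinal samples. They belong to a mixed list of fast, slow and gamma motor neuron genes, of which 5 of 19 tested passed (26.3%, against 3.96% of all genes tested). All 5 were higher in spinal, where 2.13% of all genes were, with a list median of 0.71 against 0.02 over all genes tested. The other 14 did not pass, and 13 of the 19 had an unadjusted p under 0.05 by limma. Differences ran from -1.46 to 2.03 and were above 0 in 13 of the 19 (68.4%, against 51.3% of all genes tested). Mmp9, a matrix metalloproteinase of fast-fatigable motor neurons, was at 12.94, 14.00 and 13.37 in spinal and at 11.60, 11.45 and 11.45 in facial motor neurons. That is 3.82-fold (log2 difference 1.93, SE 0.27, adjusted p = 0.00745), and its other bright probe set differed by 1.52. Chodl, a membrane lectin of fast motor neurons, differed by 1.64-fold (15.91, 16.06 and 16.03 against 15.30, 15.27 and 15.30, adjusted p = 0.00749). Sv2b, a synaptic vesicle protein, differed by 1.86-fold and Tpd52l1 by 2.10-fold. Chrna7, the alpha 7 nicotinic receptor, was at 12.51 ± 0.08 and 10.72 ± 0.29 (3.46-fold, adjusted p = 0.00601). Neither of the gamma motor neuron markers Esrrg and Gfra1 passed. Esrrg, a nuclear receptor, was at 14.14 ± 0.15 and 14.13 ± 0.20, and Gfra1, a receptor for the growth factor GDNF, at 14.00 ± 0.28 and 14.67 ± 0.26 (adjusted p = 0.969 and 0.0828). Chrna7 passed with each array left out, Mmp9 and Tpd52l1 lost the call without spinal replicate 3 (adjusted p = 0.0521 and 0.0503), Chodl without that array or facial replicate 3 (up to 0.0688), and Sv2b without these or facial replicate 2 (up to 0.0851).

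Genes of 4 calcium-binding proteins were also higher in spinal motor neurons. In the list of calcium handling genes 4 of 25 tested passed (16%), all in that direction, against 2.13% of all genes tested that were higher in spinal, and the list median was 0.29. Calretinin (Calb2) was at 14.89, 15.82 and 15.10 in spinal and at 11.55, 10.25 and 11.25 in facial motor neurons, a 19.1-fold difference (4.25, SE 0.35, adjusted p = 0.000735). Calbindin (Calb1) varied more, at 11.99, 13.50 and 10.12 against 8.29, 7.85 and 6.93 (4.18, SE 0.76, adjusted p = 0.0224). Its spinal arrays spanned a wide range, and all facial arrays were below background. Parvalbumin (Pvalb), at 14.19, 12.69 and 13.79 against 11.19, 10.08 and 10.74, differed by 7.38-fold (2.88, SE 0.40, adjusted p = 0.00749). Hpcal1, a calcium sensor of the hippocalcin family, differed by 3.87-fold (adjusted p = 0.00618). Cord tissue was at 15.23, 13.76 and 15.22 for Calb2, Calb1 and Pvalb, close to or above their spinal means of 15.27, 11.87 and 13.56, and all 3 are also known from spinal interneurons. Calb2 passed with each array left out, Calb1 lost the call without spinal replicate 1, facial replicate 2 or facial replicate 3 (up to 0.0741), and Pvalb and Hpcal1 without spinal replicate 3 (0.0663 and 0.0503).

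The receptors for transmitters that passed lay in both directions. The serotonin-gated channel Htr3a was at 12.99, 13.60 and 13.36 in facial and at 11.74, 9.71 and 10.14 in spinal motor neurons, 6.90-fold higher in facial (-2.79, SE 0.46, adjusted p = 0.0149), with cord tissue at the background level (8.77). The serotonin receptor Htr7 was 2.49-fold higher in spinal motor neurons (12.10 against 10.78, adjusted p = 0.02). Among modulator receptors 3 of 19 tested passed (15.8%, against 3.96% of all genes tested), the third being Chrna7. The glycine receptor subunit Glra2 was at 11.56, 10.90 and 11.32 in facial motor neurons and at 7.73, 5.90 and 8.82 in spinal ones (-3.77, SE 0.69, adjusted p = 0.0223). The GABA receptor subunits Gabrb2 and Gabrb1 were also higher in facial motor neurons, by 3.35-fold (adjusted p = 0.00471) and 2.87-fold (adjusted p = 0.0145), while Gabra5 was 2.76-fold higher in spinal ones (adjusted p = 0.0186). The 3 other bright probe sets of Gabrb2 differed by -1.37, -0.72 and 0.05, and those of Gabrb1 by -0.91 and -1.27. In all, 4 of 13 tested GABA and glycine receptor genes passed (30.8%). Glra2, below background on average in spinal motor neurons, entered the test through its facial level. Of 18 glutamate receptor genes tested, 2 passed (11.1%): the AMPA receptor subunit Gria1 was 3.02-fold higher in facial motor neurons (12.75 ± 0.27 against 11.16 ± 0.54, adjusted p = 0.0232), and the NMDA receptor subunit Grin2b differed by 2.23 in the spinal direction (adjusted p = 0.0339) with a facial mean below background. Gabrb2 passed with each array left out, and the calls of Htr3a, Htr7 and Gria1 were lost without spinal replicate 3, facial replicate 2 or facial replicate 3 (up to 0.0894, 0.1 and 0.102). Glra2 lost its call without any one facial array (up to 0.102), Gabrb1 without facial replicate 2 or 3 (up to 0.063), Gabra5 without spinal or facial replicate 3 (up to 0.0851), and Grin2b without any one of the 6 arrays (up to 0.106).

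The ion channel genes that passed lay in both directions too. Kcnd3, a subunit of the transient A-type potassium channel, was at 13.49, 13.58 and 13.64 in facial and at 10.85, 11.07 and 11.69 in spinal motor neurons. It was 5.16-fold higher in facial motor neurons, and no array of one site came near those of the other (-2.37, SE 0.24, adjusted p = 0.00233). Kcnmb4, a subunit of calcium-activated potassium channels, and Kcnq3, of the M-type channel, were 1.98-fold and 2.08-fold higher in facial motor neurons (adjusted p = 0.0193 and 0.0278). A second bright probe set of Kcnq3 had the opposite sign (0.73). Kcna1 was 1.65-fold higher in spinal motor neurons (adjusted p = 0.0303). Of 35 potassium channel genes tested 6 passed (17.1%, against 3.96% of all genes tested), 2 higher in spinal and 4 in facial. Of 27 sodium, calcium and HCN channel genes 4 passed (14.8%): the sodium channel subunit Scn4b (2.09-fold), and the calcium channel subunits Cacna1e (log2 difference 2.34, facial mean below background) and Cacnb2 (2.77-fold) were higher in spinal motor neurons, and the sodium channel Scn2a was 1.93-fold higher in facial ones (adjusted p between 0.0241 and 0.0478). Kcnd3 passed with each array left out. Each of the other 7 channel genes named here lost its call without spinal replicate 3 and without facial replicate 3, with adjusted p up to 0.228, and some without other arrays too.

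A few genes of axon guidance, adhesion and secretion passed, and most did not. The membrane-anchored semaphorin Sema7a was at 14.31, 14.74 and 14.19 in spinal and at 12.02, 12.40 and 12.30 in facial motor neurons, 4.50-fold higher in spinal (log2 difference 2.17, SE 0.20, adjusted p = 0.00118). Its receptor Plxnc1 lay on the other side, 4.89-fold higher in facial motor neurons (8.41, 8.99 and 9.06 against 10.83, 11.41 and 11.09, adjusted p = 0.012). Of the secreted semaphorins, Sema3a was 2.08-fold higher in spinal (adjusted p = 0.0122, with another bright probe set at -0.47) and Sema3c 3.53-fold higher in facial motor neurons (adjusted p = 0.0204). In all, 7 of 54 tested guidance genes passed (13%, against 3.96% of all genes tested), 2 higher in spinal and 5 in facial, and the list median was 0.01. The cadherins Cdh6 and Cdh8 lay on opposite sides (1.05 and -1.54, adjusted p = 0.0209 and 0.0275), and were the only 2 of 25 tested cadherins to pass (8%, list median 0). The growth factor Fgf9 was 1.87-fold higher in spinal and Igfbp6, a binding protein of insulin-like growth factors, 3.92-fold higher in facial motor neurons (adjusted p = 0.0346 and 0.0216). They were 2 of 26 tested secreted factors (7.69%, list median -0.01). None of 20 tested receptors for neurotrophic factors passed by limma, and 6 had an unadjusted p under 0.05, with Nrp1 (-0.98, adjusted p = 0.0617) and Fgfr2 (1.12, adjusted p = 0.0639) closest. Sema7a passed with each array left out. The other 7 called genes of guidance, adhesion and secretion named here lost the call without facial replicate 3, and all but Plxnc1 without spinal replicate 3 (adjusted p up to 0.171 over all arrays left out).

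Among the remaining genes with the largest differences, several were at or below background at one site. Higher in spinal motor neurons were Ptger4, a prostaglandin E2 receptor (11.87 ± 0.28 against 6.82 ± 1.43), the aldehyde dehydrogenase Aldh1a7 (12.72 ± 0.22 against 7.78 ± 0.73) and neuritin (Nrn1), a small anchored protein that promotes neurite growth (11.79 ± 0.30 against 7.70 ± 0.47). Aldh1a7 and Nrn1 passed with each array left out (adjusted p = 0.000735 and 0.00157 with all), and Ptger4 lost the call without spinal replicate 3 (0.0571). Higher in facial motor neurons was Bex1, a small brain-expressed X-linked protein, at 13.78, 14.62 and 14.38 against 11.11, 10.34 and 9.77 in spinal ones (14.4-fold, adjusted p = 0.00118). Its tissue level was 14.83, near that of facial motor neurons. The actin-binding Cald1 (6.89-fold), the sialyltransferase St6galnac5 (6.31-fold), Prrg1 (-2.54), Cpne4 (-2.22) and the transporter family member Slc35f4 (4.54-fold) were also higher in facial motor neurons, with adjusted p between 0.00675 and 0.0445. Bex1 and St6galnac5 passed with each array left out. Cald1 lost its call without spinal replicate 3 (0.0538), Prrg1 without facial replicate 2 or 3 (up to 0.096), Slc35f4 without spinal replicate 3 or any one facial array (up to 0.0875), and Cpne4 without any one array (up to 0.191).

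In lists of the shared machinery of cells and neurons, from 0 to 12% of the tested genes passed, against 3.96% of all genes tested. None of 31 tested neurofilament and axonal transport genes and none of 34 respiratory chain genes passed by limma (3 and 7 at an unadjusted p under 0.05), and the list medians were 0.01 and -0.06. The light neurofilament Nefl was at 17.49 ± 0.05 and 17.49 ± 0.03. The heavy neurofilament Nefh was at 17.06 ± 0.20 and 16.64 ± 0.05, with no overlap, and missed the threshold (0.42, adjusted p = 0.064). Of 26 synaptic vesicle genes 2 passed (7.69%), Sv2b and, higher in facial, Rab3c (2.60-fold, adjusted p = 0.00749), whose other bright probe sets differed by 0.20, 0.54 and 0.02 in the opposite direction. Of 24 tested ribosomal protein genes 3 had a difference above 0 (12.5%, against 51.3% of all genes tested), the median was -0.19, and 1, Rpl6, passed (4.17% of the list; -0.49, adjusted p = 0.0405). Among stress genes 3 of 25 passed (12%): Pdia3, a disulfide isomerase of the endoplasmic reticulum, was 4.14-fold higher in spinal (adjusted p = 0.00648), and the chaperones Hsp90b1 and Hspb8 were higher in facial motor neurons by 2.04-fold and 1.33-fold (adjusted p = 0.0338 and 0.0477). The other bright probe sets of Hsp90b1 and Hspb8 had the opposite sign (0.30, and 0.08 and 1.72). Jund, of the AP-1 transcription factors, was 2.53-fold higher in facial motor neurons (adjusted p = 0.00399), and of 24 tested genes linked to amyotrophic lateral sclerosis 1, Tia1, passed (4.17%), 2.63-fold higher in facial (adjusted p = 0.0112), and its other bright probe sets differed by -0.98, -0.85, -0.14 and 0.81. Oxt, the oxytocin gene, was the only 1 of 19 neuropeptide genes to pass (10.32 ± 0.03 against 7.89 ± 0.64, adjusted p = 0.0303). Pdia3 and Jund passed with each array left out, and Sv2b, Rab3c, Rpl6, Hsp90b1, Hspb8, Tia1 and Oxt lost the call without facial replicate 3 and in part without others (adjusted p up to 0.256).

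Genes of other cell types were present in both kinds of sample, and some differed between sites. Markers of inhibitory and excitatory neurons were summed over 7 genes: the sum was 11967 to 18477 in spinal, 4861 to 5291 in facial and 130846 to 140053 in wildtype cord tissue samples, in units of intensity, so the sites did not overlap. The glycine transporter Slc6a5 was at 12.06, 12.13 and 11.66 against 9.47, 8.27 and 9.47 (7.37-fold, adjusted p = 0.00625), and the vesicular transporter of GABA and glycine, Slc32a1, at 11.85, 12.31 and 10.79 against 9.10, 8.52 and 8.60 (2.91, adjusted p = 0.00932). Both are defining genes of inhibitory neurons, both passed with each array left out, and they were 2 of 5 tested members (40%, against 3.96% of all genes tested). The part of these cells in the higher spinal levels of Calb1, Calb2 and Pvalb was not tested. None of 3 tested spinal interneuron transcription factors passed by limma, and 1 had an unadjusted p under 0.05.

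**Figure D4:**
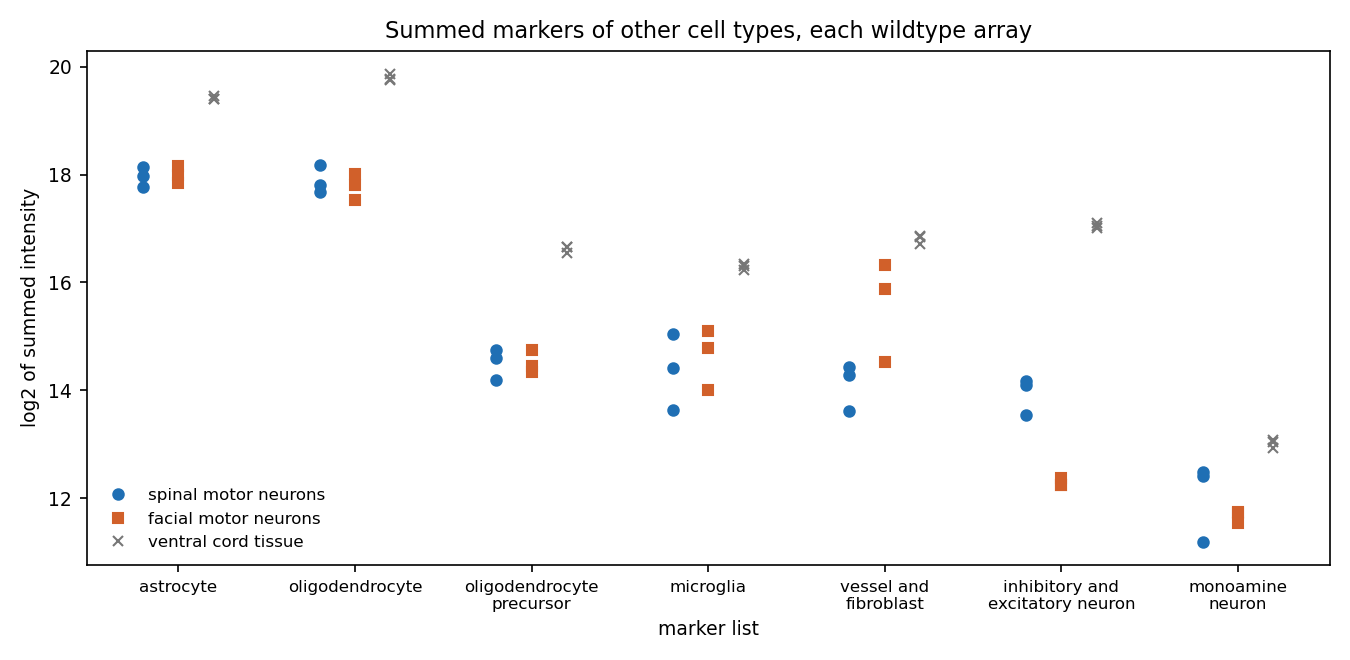
Log2 of the summed intensity of marker genes of 7 other cell types (horizontal axis) on each wildtype array. Spinal and facial arrays overlap for astrocytes, oligodendrocytes and their precursors, microglia and monoamine neurons; facial arrays are higher for vessel and fibroblast genes (14.53 to 16.33 against 13.62 to 14.43) and spinal arrays for inhibitory and excitatory neuron genes (13.55 to 14.17 against 12.25 to 12.37).

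The summed vessel and fibroblast genes were higher on the facial arrays. Their sum over 15 genes was 12587 to 22001 in spinal, 23625 to 82519 in facial and 107587 to 118765 in cord tissue samples. On the log2 scale facial replicate 1 (14.53) was close to the highest spinal array (14.43). Of 10 tested members 2 passed, both higher in facial (20%, against 3.96% of all genes tested). The other 8 did not pass, and 2 of the 10 had a difference above 0. The collagen Col3a1 was at 10.43, 11.71 and 11.03 in facial and at 8.03, 7.29 and 7.67 in spinal samples (-3.39, SE 0.48, adjusted p = 0.00749), and the collagen-binding lumican (Lum) at 12.02, 10.58 and 10.77 against 8.13, 7.63 and 7.49 (-3.38, SE 0.49, adjusted p = 0.00912). The smooth muscle actin Acta2 set facial replicate 1 apart, at 4.62 there and at 14.77 and 14.16 on the other facial arrays. The endothelial genes Pecam1 and Cdh5 were below background on average at both sites. The call of Col3a1 was lost without facial replicate 2 or 3 (up to 0.0709) and that of Lum without spinal or facial replicate 3 (up to 0.0555). In mutants the arrays of both genes overlapped between the sites (-2.15 and -0.67), and neither was bright enough to be tested. The sums did not overlap in mutants (13.57 to 13.88 in spinal and 14.5 to 15.71 in facial on the log2 scale).

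Summed markers of astrocytes, oligodendrocytes, their precursors and microglia overlapped between the sites, and those of Schwann cells did not (58106 to 69781 in spinal, 78192 to 88117 in facial, 88545 to 115934 in tissue). Most of the Schwann cell sum was the signal of 1 gene, Pmp22 (15.91 ± 0.19 in spinal and 16.28 ± 0.08 in facial). Pmp22 did not pass (-0.37, limma, adjusted p = 0.112). Of the 3 tested members 1, Drp2, had a difference above 0 (0.57). Summed astrocyte genes were 222407 to 288353 in spinal and 235773 to 293299 in facial samples, against 691586 to 716956 in tissue, with 2 of 13 tested members called (15.4%, against 3.96% of all genes tested). Those were Gfap, the intermediate filament of astrocytes, at 11.14, 10.81 and 11.35 against 7.26, 8.33 and 5.96 (3.91, SE 0.62, adjusted p = 0.0126), and the water channel Aqp4 (2.68-fold, adjusted p = 0.0256). None of the other 11 passed. The arrays did not overlap for 2 of them, in opposite directions: Fgfr3 differed by 0.66 and Aldoc by -0.42 (adjusted p = 0.18 and 0.066). The glutamate transporter Slc1a2 was at 13.87 ± 0.30 and 14.14 ± 0.07, and Aldh1l1 at 10.63 ± 0.73 and 10.74 ± 0.50. Of 7 tested precursor genes 1 passed (14.3%, list median -0.06): Vcan was higher in spinal samples by 3.11 (adjusted p = 0.0233). Its facial mean of 7.4 was below background, and its other probe sets were all dim and had both signs. Pdgfra, the defining receptor of oligodendrocyte precursors, was at 8.36 ± 2.48 and 10.47 ± 0.67. None of 13 oligodendrocyte, 11 microglia, 3 Schwann cell, 2 choroid plexus and 2 monoamine neuron genes passed by limma (1, 1, 1, 0 and 0 at an unadjusted p under 0.05), and no blood gene was bright enough to be tested. Gfap lost its call without spinal replicate 3 (0.0848), and Aqp4 and Vcan without spinal or facial replicate 3 and in part without others (up to 0.106 and 0.0871).

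Cord tissue gave a further reading of the called genes. The wildtype tissue mean was above the spinal motor neuron mean in 116 of 199 genes higher in facial motor neurons (58.3%), in 55 of 233 genes higher in spinal motor neurons (23.6%) and in 4247 of all 10916 genes tested (38.9%). The 2 lists were selected on the same spinal values that enter these shares, so the shares are a description. Where a called gene had another probe set bright enough to be read, that probe set had the same sign in 174 of 213 genes (81.7%).

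The same site differences were found in large part in motor neurons of SOD1 mutants, 6 arrays that the wildtype comparison did not use. Of the 432 genes called in wildtype, 412 had the same sign in mutants (95.4%), 228 of 233 on the spinal and 184 of 199 on the facial side, against 65.6% of the genes not called in wildtype. In mutants 797 of 10916 tested genes passed, which is 7.3%, 446 of them higher in spinal (4.09%), and 199 genes passed in both genotypes with the same direction. These are 46.1% of the wildtype calls and 25.0% of the mutant calls, and no gene passed in opposite directions. In mutants the actin ratio was again higher on average in facial motor neurons, though with overlap (30.7 ± 7.36 in spinal and 39.8 ± 17 in facial). Its part in the shared differences was not tested. In the direction of the wildtype call the median difference was 1.18 in wildtype and 0.73 in mutants; the first is the value on which the genes were selected.

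**Figure D5:**
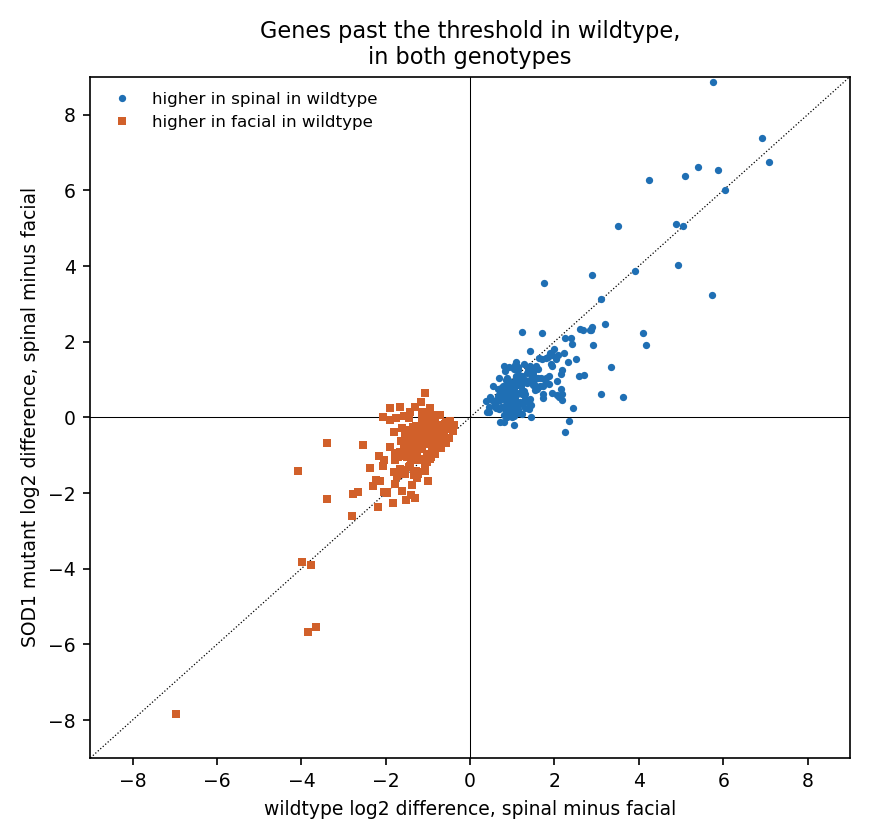
Log2 difference between spinal and facial motor neurons in SOD1 mutants (vertical axis) against that in wildtype (horizontal axis) for the 432 genes called in wildtype; the dotted line marks equal differences. In 412 of them the 2 differences have the same sign, and most points lie nearer to 0 on the mutant axis.

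The markers of site were separated in mutants too. Hoxc8 was at 13.65, 13.89 and 13.69 in mutant spinal and at 7.35, 8.47 and 7.39 in mutant facial motor neurons, a difference of 6.01 (SE 0.31, adjusted p = 4.58e-07). Hoxc10 differed by 6.39 (SE 0.29, adjusted p = 1.28e-07), Mnx1 by 6.75 (adjusted p = 1.22e-05) and Shox2 by -7.84 (adjusted p = 1.92e-05). Of all 33 Hox genes, 24 had the same sign in both genotypes, against 65.6% of the tested genes not called in wildtype. By paralog group it was 3 of 7 genes in groups 1 to 3 and 9 of 10 in groups 4 to 7. In groups 8 and 9 it was 6 of 6, and in groups 10 to 13 it was 6 of 10. Isl1 differed by -1.97 in both, and Calb2 by 6.27 in mutants (adjusted p = 8.62e-08). Some other named genes called in wildtype passed in mutants too, such as Hoxd9, Kcnd3 and Sema7a (limma, adjusted p = 1.23e-06, 0.00305 and 0.00804). Some, such as Hoxb5 and Tbx20, had too low a mean over the mutant arrays to be tested. Others did not pass in mutants by limma. Among them were Nrn1 (2.24, adjusted p = 0.141), Pdia3 (0.59, 0.196), Jund (-0.50, 0.132) and Slc32a1 (1.91, 0.224), which had passed with each wildtype array left out. Calb1 (1.91, adjusted p = 0.476) and Cacna1e (-0.09, 0.942) did not pass either.

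Whether the site difference itself differed between genotypes was tested as an interaction over the 12 motor neuron arrays. No gene of 10916 passed (limma, smallest adjusted p = 0.219), and 987 had an unadjusted p under 0.05. It gave 2 and 3 calls without wildtype spinal replicates 1 and 2, and 1 call without wildtype facial replicate 1 or 2 or mutant facial replicate 1. The smallest p on one side were those of Col24a1, a collagen, and Laptm5, a lysosomal protein of immune cells, whose site differences were -1.20 and -0.19 in wildtype and 1.07 and 2.29 in mutants. On the other side were Nudt12 and Coa8, at 1.44 and 1.05 in wildtype and at 0.00 and -0.21 in mutants. The other bright probe sets of Coa8 differed by -0.95 and 0.51 in wildtype. Of the genes called in wildtype, 2 had mutant arrays that were fully separated in the opposite direction. The summed microglia markers were higher in mutant spinal (16.15 to 16.54 on the log2 scale) than in mutant facial samples (14.49 to 14.70), while they overlapped between the sites in wildtype (13.63 to 15.04 and 14.01 to 15.10); the part of this in the values of Laptm5 was not tested.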

How the data were processed

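The authors deposited 1 table of linear intensities, 1 value per probe set and array, for 45101 probe sets on 18 Affymetrix arrays. How scanner images became intensities is not given in the sources used here. The 2% trimmed mean of the deposited intensities was 2500 on all arrays, a common scaling target. Arrays have no read depth, and their number limits the precision.

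These intensities were taken to log2(intensity + 16), and all 18 arrays were quantile normalized together. Names came from the platform annotation: 34945 probe sets had 1 symbol, 932 several, 9211 none, and 64 were controls. Of the probe sets that name 1 gene, the one with the highest mean stood for it, giving 18193 genes. Genes with a mean over the fitted arrays under the 40th percentile were left out, which left 10916. Comparisons used limma 3.58.1 under R 4.3.3 (lmFit, eBayes with a mean-variance trend), fitted on their own arrays alone, with Benjamini-Hochberg adjustment at 0.05. SE is the standard error of the log2 difference, with n = 3 per group. The fit was tested on simulated data.

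The named genes are all Hox genes on the array, the markers Hoxc8, Hoxc10, Mnx1 and Shox2, up to 15 genes per direction with the largest difference among called genes whose arrays did not overlap, up to 4 called members of each of 39 gene lists by smallest p (2 where none was called), and up to 5 per direction for the interaction. Predicted genes and clones (5 of the called genes) were not named. Further list members are given as examples. The comparison, the members and the lists were chosen with earlier results of these data known. The shares of list members that passed are therefore a description.

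Alternatives were a common median, quantile normalization of the fitted arrays, pseudocounts of 1 and 64, other filters and probe set choices, no trend, more arrays in 1 fit, weights per array, a replicate block, the actin and Gapdh ratios as covariates, and arrays left out. Promoter windows came from RefSeq's table for GRCm38.p6. The array files name no genome build, so no other coordinates are given.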

Additional observations from a re-analysis of the deposited data

How the results depend on the processing

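The direction of the 79 named genes among the 432 site calls held in every alternative in which they were tested. In several it could not change: other filters, no trend, more arrays in 1 fit and the replicate block kept the same values and group means. With every probe set, the direction was read from the same probe set of each gene. Other bright probe sets of some called genes had the opposite sign, as given above. The count of site calls was 432 with a common median (199 higher in spinal, 233 in facial), 443 with quantile normalization of the 6 arrays, 430 and 487 with a pseudocount of 1 and 64, 398 with no filter and 475 with a filter at the 60th percentile. It was 536 with every probe set and 437 with probe sets chosen on the motor neuron arrays. It was 196 with no mean-variance trend, 1834 with 18 arrays in 1 fit, 977 with 12 arrays, 3222 with array weights, 4 with the actin ratio and 787 with the Gapdh ratio as a covariate, the last chosen after seeing the data; the cause was not tested. Of the 79 named calls, 3 were lost with a common median, 30 with no trend and 76 with the actin ratio. Leaving out 1 array gave 59 to 687 calls, with 19 of the 79 called in all 6 of these fits and 60 lost in at least 1, and leaving out both replicates 1 gave 334. Same-numbered arrays of the sites did not deviate together (correlations of -0.02, -0.04 and 0.03). With so few arrays this cannot tell whether they share an animal, and the labels give no pairing. With the replicate block 233 genes passed, 219 of them shared with the 432. The share of wildtype calls with the same sign in mutants was 92.6 to 95.6% with arrays left out. The interaction had 1 call with no trend and 0 to 3 with arrays left out. Signs turned only for 9 named genes that had not passed. With the actin ratio these were Hoxb3 (0.54), Sox21 (0.74), Ttr (0.17) and Ighm (-0.05), with the Gapdh ratio Tph2 (-0.32) and H2-K1 (0.07), and with array weights Hoxb3 (0.02). With arrays left out, Hoxb3 ranged from -0.22 to 0.20, Tph2 from -0.67 to 0.92, H2-K1 from -0.27 to 0.12, Laptm5 from -0.64 to 0.11, Clic6 from -0.05 to 0.62 and Drp2 from -0.45 to 0.94.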
